A study of Sus scrofa with 6 samples.

Results

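The insulin-like growth factor (IGF) system was examined through its ligands IGF1 and IGF2, its receptors IGF1R and IGF2R and the binding proteins IGFBP2 to IGFBP7. Every probe set that the annotation of the array or the study's own gene list names for one of these 10 genes was taken, whatever its value. A probe set is the group of short oligonucleotides that together report 1 transcript. This gave 23 of the 24123 probe sets on the array, for 7 of the 10 genes. IGF2 had 13 probe sets, IGF1 had 3, IGF1R and IGFBP6 had 2 each, and IGF2R, IGFBP2 and IGFBP5 had 1 each. No probe set was named for IGFBP3, IGFBP4 or IGFBP7, so these genes were not analysed here.

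The tissue was aortic valve leaflet from pigs of mixed breed, about 5 months old and 90 kg, with 3 arrays of castrated males and 3 of females, 1 pig per array. The leaflets of both sexes were taken out within 5 hours of death and their endothelium was scraped off with a scalpel. This was meant to leave mainly valve interstitial cells, the fibroblast-like cells of the leaflet. The males had been castrated, so the comparison of male with female leaflets carries no test of intact males. The values were log2 expression values from Affymetrix Porcine Genome Arrays.

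IGF1 and IGF2 are small secreted proteins that promote growth and survival by binding IGF1R, a receptor tyrosine kinase that signals through the PI3K-AKT and RAS-ERK pathways. IGF2R takes up IGF2 and carries it to lysosomes, and most IGF outside cells is held by IGFBPs, which proteases cleave to set the ligand free. IGFBP5 and IGFBP2 also bind extracellular matrix or cell surface partners, and several IGFBPs act on cell migration and on bone cells without IGF.

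The arrays had medians between 7.33 and 7.38, and array-to-array correlations were 0.987 to 0.993 within a sex and 0.972 to 0.987 across sexes. XIST, DDX3Y, EIF1AY and UTY matched the labelled sex on all 6 arrays. Of 14 valve interstitial and fibroblast markers, 0 had means below the 25th percentile of all values (5.53) in both sexes, against 3 of 5 cardiomyocyte markers. Despite the scraping, 12 of the 13 measured endothelial markers were above that percentile in at least 1 sex. The mean level of the endothelial list was 9.11 to 9.95 on male arrays and 8.55 to 9.13 on female arrays. That of 4 macrophage markers was 10.35 to 10.65 on male and 9.91 to 10.70 on female arrays. For the valve interstitial and fibroblast list it was 12.38 to 12.56 and 12.51 to 12.66.

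The binding proteins IGFBP5 and IGFBP2 were higher in male leaflets on every array, while IGF2 was lower in male leaflets by all 6 of its bright probe sets, those with a mean at or above the 75th percentile of all values (9.21). IGF1, both receptors and IGFBP6 overlapped between the sexes. Tests were made with limma, a linear model with moderated variances, and calling a probe set took both a p under 0.05 after Benjamini-Hochberg adjustment and a change of at least 2-fold. Over all 23999 probe sets other than controls, 73 were called (0.304%, with 0.167% higher and 0.138% lower in males), and 0 of the 23 IGF probe sets were, with a smallest limma adjusted p of 0.0704 and 8 of 23 at an unadjusted p under 0.05, against 16.9% of all probe sets. In 10 of the 23 (43.5%) the 3 male and the 3 female values did not overlap, 7 with the males below and 3 with the males above, while 22.4% of all probe sets had no overlap (11.4% with males below and 11.1% with males above). These 10 are not independent of each other, since 8 of them report IGF2. A log2 difference of at least 1 in size was seen in 3 of the 23 (IGFBP5, IGFBP2 and 1 IGF2 probe set), against 2.18% of all probe sets (1.16% higher and 1.02% lower in males). The median difference of the 23 was -0.04, against -0.01 over all probe sets.

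**Figure D1:**
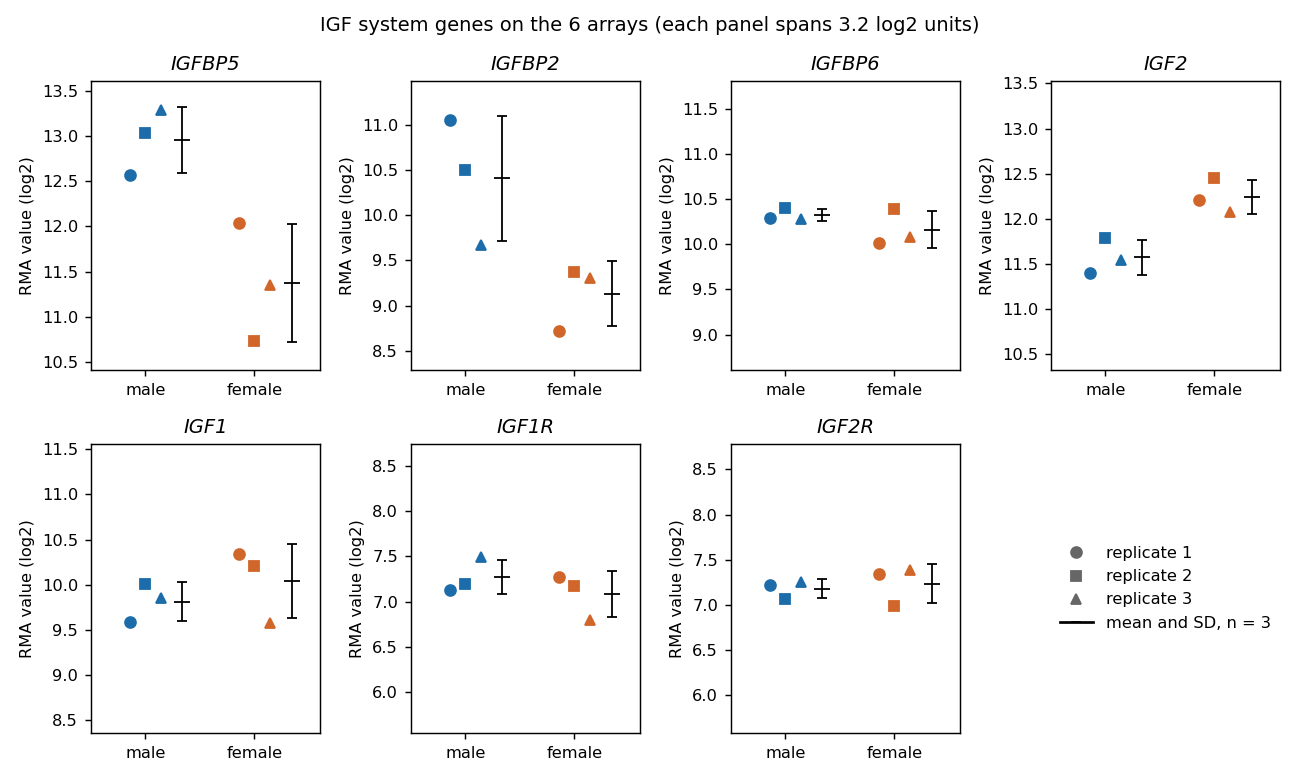
RMA value (log2) of the brightest probe set of each gene on each of the 3 male and 3 female arrays, with mean and SD beside the points and every panel spanning the same 3.2 log2 units. IGFBP5 and IGFBP2 sit higher on all male arrays (means 12.96 and 10.41 in males, 11.37 and 9.13 in females), IGF2 sits lower (mean 11.58 in males, 12.25 in females), and the other 4 genes overlap.

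IGFBP5, which is abundant in matrix-rich tissues and in bone, had RMA values of 12.56, 13.03 and 13.29 in male leaflets, against 12.04, 10.73 and 11.35 in female leaflets. The lowest male lay 0.53 above the highest female. The females spread over 1.30 and the males over 0.72. The means were 12.96 ± 0.37 in males and 11.37 ± 0.65 in females (SD, n = 3 each), a log2 difference of 1.59 (SE 0.33, 95% interval 0.80 to 2.37) or 3.01-fold. Over all probe sets the limma adjusted p was 0.115. An exact permutation test gave p = 0.1, which is the smallest that 3 against 3 arrays allow.

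The study's methods tested after a filter on CV, the coefficient of variation (SD over mean), which the supplementary methods describe as removing values too unlike between replicates, without a limit. A filter in the other direction, on variation across both sexes, was chosen here with earlier results of these data known. When the most variable 10% by CV across the 6 arrays were kept, 2412 probe sets remained and 183 were called (7.59%, of which 4.60% were higher in males). IGFBP5 and IGFBP2 were the 2 IGF probe sets among them, and IGFBP5 was called, with a limma adjusted p of 0.0395. A CV over both sexes keeps probe sets because the sexes differ, and IGFBP5 was known from the study's own list of called genes, so this call is a description and no independent evidence. It was lost with an intensity trend in the variance model (adjusted p = 0.113) and without male 1, male 2 or female 3 (limma adjusted p between 0.0574 and 0.0937), and without female 2 the filter did not keep the gene. The study also measured IGFBP5 by quantitative RT-PCR, on the pigs of the arrays and on additional animals. With reference to the pigs of the arrays, it reported substantial agreement of the fold changes with those of the arrays. Its text states no separate result for this gene in the additional animals.

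IGFBP2, another high-affinity binder with a preference for IGF2, had 11.05, 10.50 and 9.68 in male leaflets, against 8.72, 9.37 and 9.31 in female leaflets. The sexes did not overlap, but male 3 was only 0.30 above the highest female, and the males spread over 1.38. The log2 difference of 1.28 (SE 0.35, 95% interval 0.45 to 2.10), or 2.42-fold, had a limma adjusted p of 0.170 over all probe sets and 0.0674 with the CV filter, so IGFBP2 was not called. Without male 3 the difference was 1.64 and passed in both comparisons (limma adjusted p = 0.0455 over all probe sets and 0.0194 with the CV filter), and with array weights it passed with the CV filter (1.38, limma adjusted p = 0.0180) but not over all probe sets (limma adjusted p = 0.0565).

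In the RefSeq annotation of the pig genome (Sscrofa11.1) IGFBP2 and IGFBP5 are neighbours on the same chromosome, with no other gene listed between them. Their order over the arrays was opposite within each sex. Among males, IGFBP2 was highest in male 1 and lowest in male 3, while IGFBP5 was lowest in male 1 and highest in male 3. Among females, IGFBP2 was highest in female 2 and lowest in female 1, while IGFBP5 was lowest in female 2 and highest in female 1.

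Markers of other cell types differed between the sexes too. Of the 13 measured endothelial markers 11 were higher in males, with a median log2 difference of 0.90, and their mean level was 9.95, 9.67 and 9.11 on the male arrays, against 8.59, 9.13 and 8.55 on the female arrays. The values of male 3 and female 2 overlapped, and CALCRL, ESAM and ICAM2 were called with the CV filter. The summed level of the list (log2 of its summed linear values) was 13.9 to 14.9 in males and 13.3 to 14.0 in females, and of its members KDR alone was below the 25th percentile in both sexes. Among the males IGFBP2 had the same order over arrays as the endothelial mean and IGFBP5 the opposite order. This did not hold among the females. Female 2 was highest in the endothelial mean and in IGFBP2 and lowest in IGFBP5. The lowest endothelial mean was in female 3, while the lowest IGFBP2 and the highest IGFBP5 were in female 1. Of the 5 measured cartilage markers 4 were lower in males, with a median of -1.85 and with ACAN, CILP and COMP called with the CV filter. SOX9, a transcription factor, went the other way with a difference of 0.57, and COL2A1 differed by -0.21, both with overlap. The summed level of the 5 markers was 11.4 to 13.4 in males and 13.9 to 14.8 in females. The part of these cells in the IGFBP differences was not tested, and in bulk tissue fewer cells of a type and less RNA per cell cannot be told apart.

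**Figure D2:**
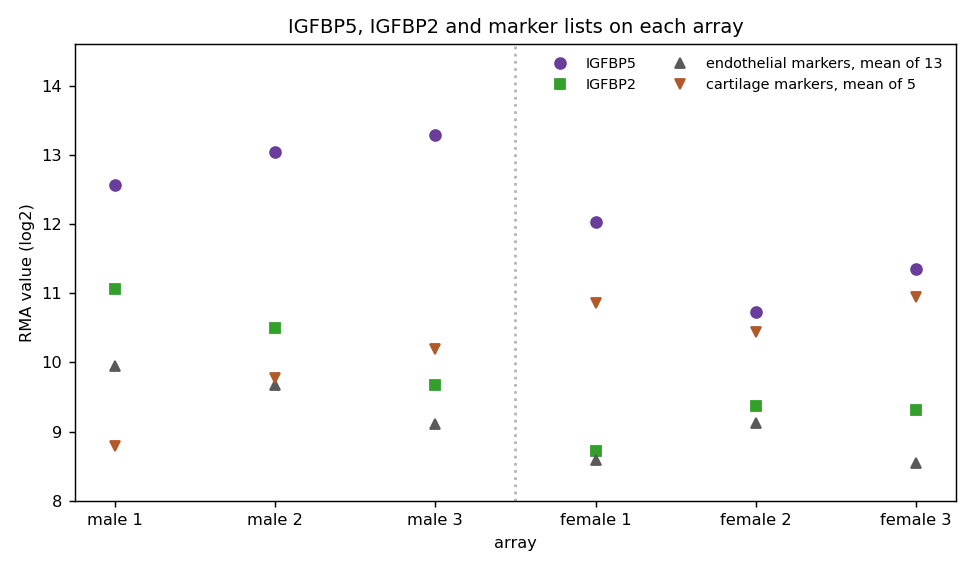
RMA values (log2) of IGFBP5 and IGFBP2 and the mean of the endothelial and cartilage marker lists on each array, males left and females right of the dotted line. Male 1 has the highest IGFBP2 (11.05) and endothelial mean (9.95) and the lowest male IGFBP5 (12.56), and male 3 has the reverse among males (IGFBP2 9.68, endothelial mean 9.11, IGFBP5 13.29). Among females the orders differ, with the endothelial mean lowest in female 3 (8.55) and IGFBP2 lowest in female 1 (8.72).

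IGFBP6, a binder with a strong preference for IGF2, showed no such difference. Its brighter probe set (Ssc.14062.2.S1_a_at) had 10.29, 10.40 and 10.27 in male leaflets and 10.01, 10.39 and 10.08 in female leaflets. The other (Ssc.14062.1.S1_at) had 8.88, 8.68 and 8.81 in male leaflets and 8.38, 9.13 and 8.34 in female leaflets. In both, female 2 stood above the other females and inside or above the range of the males. The log2 differences were 0.16 (95% interval -0.14 to 0.46) and 0.17 (95% interval -0.34 to 0.68), with limma adjusted p of 0.581 and 0.739. These intervals leave room for changes in either direction, but both lie below a 2-fold rise.

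IGF2, the ligand that most mammals express from the paternal copy alone, was reported by 13 probe sets that fell into a bright and a dim group. The 6 bright ones held values between 10.25 and 12.45, and their names all carry the S1 mark, which Affymetrix gives to sense-strand designs. The 7 dim ones lay between 5.05 and 7.10, and 4 of them carry the A1 mark of antisense-strand designs. The other 3 carry the S1 mark, so the mark does not separate the groups. Probe sets of 1 gene can share oligonucleotides, and 4 of the 13 end in _x_at, the mark of probes that may also match other transcripts. The probe sets therefore count as repeated readings of 1 gene and not as independent findings.

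In all 6 bright probe sets every male was below every female, which held for 13.5% of the 5969 probe sets of that brightness. The probe set with the highest mean (Ssc.9365.2.S1_a_at) had 11.40, 11.79 and 11.54 in male leaflets, against 12.21, 12.45 and 12.08 in female leaflets. The means were 11.58 ± 0.19 and 12.25 ± 0.19 (SD, n = 3 males and 3 females), and the log2 difference was -0.67 (SE 0.15, 95% interval -1.01 to -0.32, limma adjusted p = 0.123). The widest separation was in Ssc.20525.1.S1_at, which had 10.41, 10.77 and 10.83 in male leaflets, against 11.79, 12.23 and 11.56 in female leaflets. Its highest male lay 0.73 below its lowest female. The log2 difference was -1.19 (SE 0.20, 95% interval -1.65 to -0.72), which is 2.28-fold lower in males, with a limma adjusted p of 0.0704 over all probe sets.

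The other 4 bright probe sets differed by -0.67 to -0.48, with intervals that all lay below 0. Ssc.9365.5.S1_a_at had 11.09, 11.59 and 11.33 in males and 12.09, 12.20 and 11.73 in females, a difference of -0.67. Ssc.9365.3.S1_a_at had 11.05, 11.51 and 11.26 in males and 11.97, 12.13 and 11.60 in females, a difference of -0.63. Both place male 2 closest to the females and female 3 closest to the males, and the gap between the sexes was 0.09 in the second. Ssc.9365.3.S1_x_at had 10.88, 11.23 and 11.02 in males and 11.60, 11.73 and 11.33 in females, a difference of -0.51. Ssc.9365.6.S1_x_at had 10.25, 10.55 and 10.44 in males and 10.99, 11.01 and 10.69 in females, a difference of -0.48. Over the 6 bright probe sets the median difference was -0.65, the limma adjusted p lay between 0.0704 and 0.179, and the unadjusted p was under 0.05 in all 6. Male 1 was the lowest male and female 2 the highest female in 6 of 6, so the order within each sex was nearly the same whichever probe set was read.

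**Figure D3:**
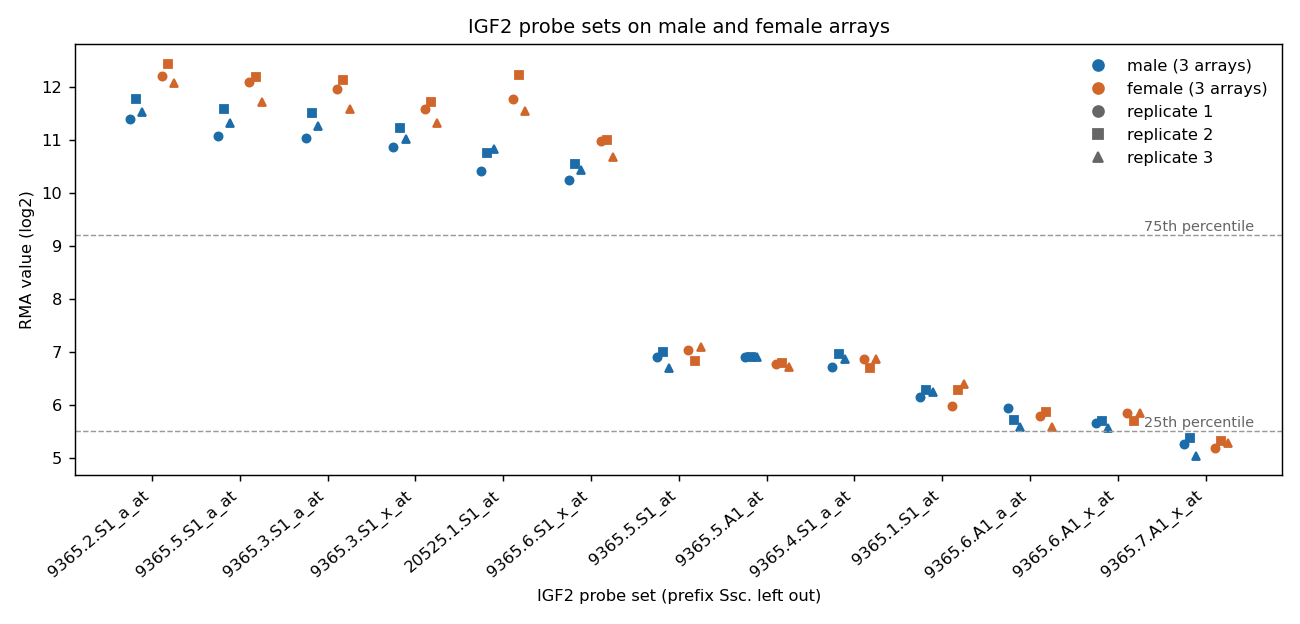
RMA values (log2) of the 13 IGF2 probe sets, ordered by mean, with males left and females right at each probe set and dashed lines at the 25th and 75th percentiles of all values. The 6 bright probe sets hold every male below every female, and the 7 dim ones lie between 5.05 and 7.10 with differences of -0.15 to 0.15.

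The call of IGF2 depended on how probe sets were filtered. None of its probe sets passed the CV filter at 10%, and Ssc.20525.1.S1_at lay just under its limit, with a CV of 6.20% where 6.50% was the lowest kept. With 20% of the probe sets kept it was called (limma adjusted p = 0.0407). A filter closer to the study's description keeps probe sets that vary little between replicates, and it did not keep IGFBP5 or IGFBP2. The study's list of 183 called probe sets holds IGFBP5, so the study's own filter kept that gene and was not this one. The 10% filter on high CV also called 183 probe sets. When the probe sets with a within-sex CV below the median were kept, 5 of the 6 bright IGF2 probe sets had limma adjusted p between 0.00304 and 0.0142, all under 2-fold, in a comparison where 5.36% of 12061 probe sets passed 0.05 with males lower and 0.174% passed in either direction with 2-fold. That filter selects on the same spread that the test divides by, and so lowers p for what it keeps.

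The 7 dim IGF2 probe sets gave log2 differences from -0.15 to 0.15, with limma adjusted p of 0.459 to 0.992. Ssc.9365.5.A1_at had 6.91, 6.92 and 6.91 in males and 6.78, 6.79 and 6.73 in females, so the males were above the females by a difference of 0.15. Ssc.9365.6.A1_x_at went the other way without overlap, with 5.67, 5.70 and 5.58 in males and 5.85, 5.70 and 5.86 in females, a difference of -0.15 in which male 2 and female 2 nearly met. The remaining 5 overlapped, with differences of -0.12 for Ssc.9365.5.S1_at, -0.04 for Ssc.9365.7.A1_x_at, -0.004 for Ssc.9365.1.S1_at, 0.01 for Ssc.9365.6.A1_a_at and 0.04 for Ssc.9365.4.S1_a_at. What transcript the dim probe sets report was not tested.

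Marker levels are given beside IGF2. Of the 14 valve interstitial and fibroblast markers 12 were lower in males, with a median log2 difference of -0.26 over the list, a summed level of 17.0 to 17.2 in males and 17.2 to 17.4 in females, and 0 called in either comparison. The lowest was -0.44 and the highest was 1.20, for S100A4, a calcium-binding protein of fibroblasts and other motile cells that was named after its values were seen. S100A4 had 11.16, 10.72 and 10.08 in males and 9.31, 9.77 and 9.28 in females, without overlap and in the opposite direction to IGF2 (limma adjusted p = 0.134). The median over the bright IGF2 probe sets was -0.65, and the part of these markers in the IGF2 difference was not tested.

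IGF1, the ligand that growth hormone induces in liver and many tissues, overlapped between the sexes in all 3 probe sets. Ssc.16231.3.S1_a_at had 9.59, 10.004 and 9.85 in male leaflets and 10.34, 10.21 and 9.58 in female leaflets. Ssc.16231.1.S1_a_at had 8.60, 9.11 and 8.97 in male leaflets and 9.52, 9.39 and 8.84 in female leaflets. In both, females 1 and 2 were above every male, while female 3 was below all males in the first and below 2 of them in the second. The differences were -0.23 (95% interval -0.74 to 0.28) and -0.36 (95% interval -0.86 to 0.14), with limma adjusted p of 0.646 and 0.435, and both intervals reach below and above 0. The antisense-strand probe set Ssc.16231.2.A1_a_at was dimmer, with 6.76, 6.73 and 6.67 in males and 6.63, 6.60 and 6.80 in females, and a difference of 0.05.

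IGF1R, the signalling receptor, had 2 probe sets. Ssc.19009.1.S1_at had 7.13, 7.20 and 7.49 in male leaflets and 7.27, 7.18 and 6.80 in female leaflets, a difference of 0.19 (95% interval -0.19 to 0.57, limma adjusted p = 0.606). Ssc.16058.1.S1_at had 6.68, 6.67 and 6.87 in male leaflets and 6.88, 6.68 and 6.79 in female leaflets, a difference of -0.04 (95% interval -0.30 to 0.22, limma adjusted p = 0.884). The sexes overlapped in both, and male 3 and female 3 set most of the first difference. IGF2R, the clearance receptor for IGF2, had 7.22, 7.06 and 7.26 in male leaflets and 7.34, 6.98 and 7.38 in female leaflets. Its replicate 2 was the lowest pig in each sex, and its difference was -0.05 (95% interval -0.38 to 0.27, limma adjusted p = 0.877). The intervals of all 3 receptor probe sets exclude a 2-fold difference in either direction.

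**Figure D4:**
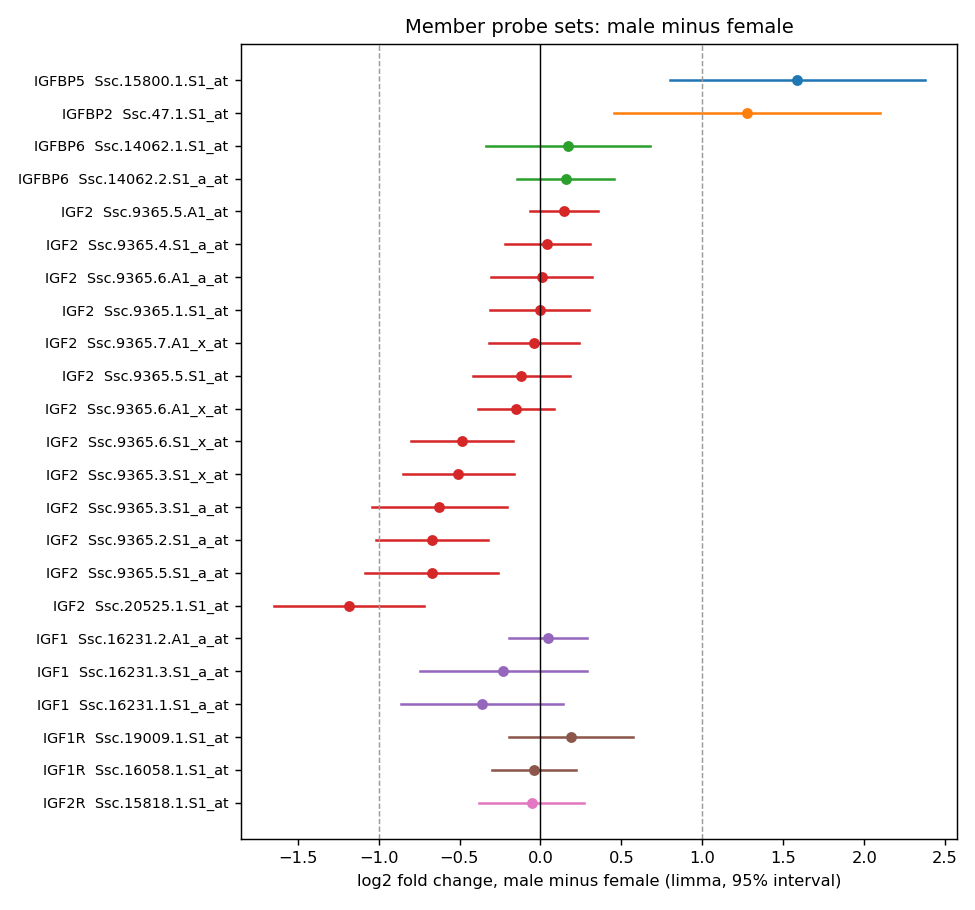
Log2 fold change, male minus female, of the 23 IGF probe sets with 95% intervals from limma, in which dashed lines mark 2-fold. IGFBP5 (1.59) and IGFBP2 (1.28) lie right of 0 and the 6 bright IGF2 probe sets (-0.48 to -1.19) left of it, and the intervals of the other 15 all include 0.

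Proteins that set IGF free or hold it were read from a list of 24 genes, of which 19 were measured, 9 higher and 10 lower in males, with a median difference of -0.003. Only STC1 was called in this list. STC1, a secreted glycoprotein that in human cells inhibits the IGFBP protease PAPP-A, had 11.68, 11.18 and 10.53 in male leaflets, against 8.25, 9.13 and 8.70 in female leaflets. Every male was over 1 log2 unit above every female, and STC1 rose in males by 2.44 on the log2 scale (SE 0.32, 5.42-fold, limma adjusted p = 0.0440 over all probe sets). A dimmer STC1 probe set gave 1.44 (limma adjusted p = 0.0395), and the third gave 0.03. STC1 is also on the study's list of called genes, which is no independent evidence. The study measured STC1 by quantitative RT-PCR too, on the pigs of the arrays and on additional animals. It reported substantial agreement with reference to the pigs of the arrays. The order of STC1 among males (male 1 highest, male 3 lowest) was that of the endothelial markers. Among females it was not, with female 1 lowest for STC1 and female 3 lowest for the endothelial mean.

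The proteases themselves did not pass. HTRA1, a secreted serine protease that cleaves IGFBP5 in human and mouse cells, had 13.02, 12.98 and 12.95 in males and 13.28, 13.32 and 13.34 in females, a small gap without overlap (difference -0.33, limma adjusted p = 0.170). PAPPA, the protease of IGFBP4 and IGFBP5 in human cells, was named after its values were seen. The probe set with the larger difference had 5.96, 6.01 and 6.37 in males and 6.49, 6.59 and 6.56 in females, values near the 25th percentile, with a difference of -0.43 (limma adjusted p = 0.194), and its other probe set differed by -0.26 with overlap. MMP2, a gelatinase that can cleave IGFBPs, differed by -0.47 (limma adjusted p = 0.349), and CTSD, a lysosomal protease, by 0.31 (limma adjusted p = 0.392). The sexes overlapped in both.

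Of the 10 listed CCN and IGFBP-like genes, whose proteins share a domain with IGFBPs, 2 were measured. The matricellular protein CCN1 differed by 0.09 and the membrane protein CRIM1 by 0.21, both with overlap.

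Receptors and messengers of insulin and growth hormone, which share substrates with IGF1R or drive IGF1, had 9 of 11 genes measured, 2 higher and 7 lower in males (median -0.05), with 0 called. In 3 of the 9 (33.3%) the sexes did not overlap, all with males below, against 22.4% of all probe sets without overlap and 11.4% with males below. JAK2, the kinase of the growth hormone receptor, had 9.35, 9.64 and 9.69 in males and 10.18, 10.58 and 10.02 in females. Every male was below every female, with a difference of -0.70 (SE 0.17, limma adjusted p = 0.144). Its second probe set differed by -0.52 and overlapped in 1 array. INSR, the insulin receptor, differed by -0.22 in its brightest probe set (limma adjusted p = 0.334), GHRHR, a pituitary hormone receptor, by -0.16, and INS, which lies next to IGF2 in the annotation, by 0.12.

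Proteins that bind IGF2 mRNA, together with genes that like IGF2 are expressed from 1 parental copy or control such loci, formed a list of 13, of which 5 were measured. By the brightest probe set of each gene, the sexes did not overlap in 4 of the 5 (80.0%), against 22.4% of all probe sets. Of the 5 genes, 0 were called. MEG3, a long RNA expressed from the maternal copy, had 7.17, 8.03 and 8.08 in males and 8.71, 9.03 and 9.17 in females, a difference of -1.21 (limma adjusted p = 0.115). The other MEG3 probe set, of similar mean (8.25 against 8.36), overlapped between the sexes, with a difference of -0.71 (limma adjusted p = 0.425). PEG3, a zinc finger gene expressed from the paternal copy, had 7.74, 8.34 and 8.75 in males and 9.17, 9.54 and 9.34 in females, a difference of -1.07 (limma adjusted p = 0.134). In both, male 1 was the lowest pig, as it was in the bright IGF2 probe sets. PLAGL1, a zinc finger factor that in mouse acts on other imprinted genes, differed by -0.31 in its brightest probe set (limma adjusted p = 0.336) and by -0.83 in another (limma adjusted p = 0.142), both with males below. GRB10, an adaptor that restrains IGF1R and insulin receptor signalling, went the other way, with 10.63, 10.49 and 10.27 in males and 9.74, 10.24 and 10.06 in females, a difference of 0.45 (limma adjusted p = 0.240). With 5 genes measured, these counts describe the genes named and not imprinted genes at large.

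**Figure D5:**
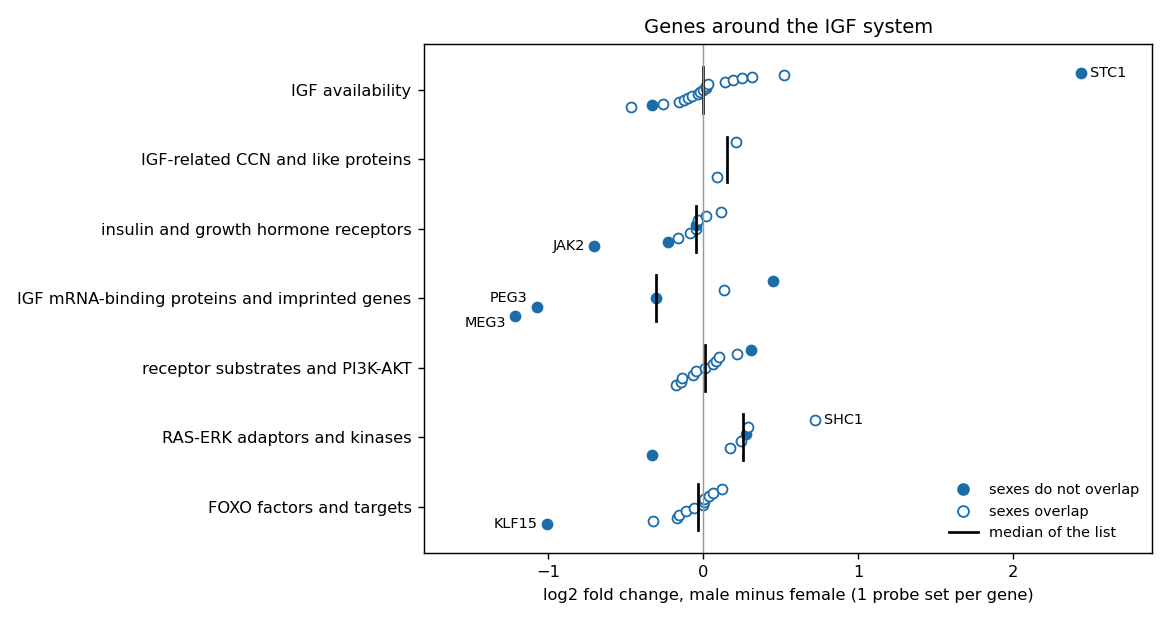
Log2 fold change, male minus female, of each measured gene (1 probe set per gene) in 7 lists around the IGF system, in which filled points mark genes whose sexes do not overlap and black bars mark list medians. STC1 (2.44) stands to the right, and MEG3 (-1.21), PEG3 (-1.07) and KLF15 (-1.01) stand to the left, while the lists' medians lie between -0.31 and 0.26.

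Downstream of the receptor, most transcripts lay close together in the sexes. Of 30 receptor substrates and PI3K-AKT genes 11 were measured, 6 higher and 5 lower in males, with a median of 0.02, 0 called and 1 without overlap (9.09%, against 22.4% of all probe sets). That one was EIF4E, the cap-binding translation factor, at 9.12, 8.85 and 8.78 in males and 8.52, 8.64 and 8.68 in females (difference 0.31, limma adjusted p = 0.275). The kinases AKT1 and AKT2 differed by 0.22 and -0.14, and TSC2, which restrains mTOR, by 0.10, all with overlap.

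Of 17 RAS-ERK adaptors and kinases 6 were measured, 5 higher and 1 lower in males, with a median of 0.26 and 0 called. In 2 of the 6 (33.3%) the sexes did not overlap, 1 with males above and 1 with males below, against 22.4% of all probe sets. GAB1, a docking protein, was the lower one, at 10.03, 10.02 and 10.26 in males and 10.52, 10.40 and 10.38 in females, without overlap (difference -0.33, limma adjusted p = 0.217). SHC1, an adaptor that links the receptor to RAS, differed by 0.72 (limma adjusted p = 0.263) with overlap of female 2 and male 3. The kinase MAPK3 differed by 0.27 without overlap, and MAP2K2 by 0.24 with overlap in its brighter probe set. The other MAP2K2 probe set (mean 9.14, against 9.80) went the other way, with a difference of -0.16 (limma adjusted p = 0.464). Its males (9.05, 9.01 and 9.12) were all below its females (9.12, 9.24 and 9.30), though male 3 and female 1 nearly met. Of the 9 probe sets of this list, 6 were higher in males.

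FOXO factors, which AKT keeps out of the nucleus, and their targets had 12 of 15 genes measured, 5 higher and 7 lower in males. Their median was -0.03, with 0 called and 1 without overlap (8.33%, against 22.4% of all probe sets). KLF15, a transcription factor of fasting and glucocorticoid response, had 8.91, 9.39 and 9.51 in males and 10.37, 9.93 and 10.54 in females. All males were below all females, with a difference of -1.01 (SE 0.21, limma adjusted p = 0.115). The cell cycle inhibitor CDKN1B, FOXO3 and the antioxidant enzyme catalase (CAT) differed by -0.33, -0.17 and -0.11, all with overlap.

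Genes most like the members over the 6 arrays were sought among 480 probe sets with 1 gene, a mean above the array median and an SD of at least 0.5, by Pearson correlation, which here is a description over 6 arrays that mostly carries the sex difference. Most like IGFBP5 were APCDD1 (0.94), JUN (0.94), CCRL2 (0.93), PLPPR5 (0.93) and LEF1 (0.93). APCDD1, a membrane inhibitor of WNT signalling, had 11.34, 11.58 and 12.06 in males and 11.00, 10.60 and 10.98 in females, with male 3 highest and female 2 lowest, as for IGFBP5. For IGFBP2 the closest were CDH11 (0.99), SCD (0.99), FXYD5 (0.98), SLC16A13 (0.98) and SQLE (0.98). Most like IGF2 were LOC100511937 (0.99), the metallothionein MT-2B (0.98), CBARP (0.97), NDEL1 (0.97) and ANGPTL4 (0.96). ANGPTL4, an inhibitor of lipoprotein lipase, had 6.68, 7.07 and 6.36 in males and 8.22, 8.75 and 7.54 in females, and its highest pig was female 2, as in the bright IGF2 probe sets. Most like IGF1 were THBS1 (0.95), HSPB6 (0.89), GADD45G (0.89), GBP1 (0.88) and CXCL9 (0.87). THBS1, a matricellular protein, had 9.78, 10.97 and 10.97 in males and 11.53, 11.74 and 9.91 in females, and like IGF1 it was low in male 1 and female 3, so this likeness followed single pigs and not sex.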

How the data were processed

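Total RNA (400 ng per pig) from scraped aortic valve leaflets was labelled for 6 Affymetrix Porcine Genome Arrays. The authors deposited log2 values computed by RMA (background correction, quantile normalization and summary per probe set) in R 2.12.0 per the submitters' processing notes. They were used as deposited, without further normalization, and raw intensities were not read. Genes were named from the platform annotation, in which 10069 of the 23999 probe sets other than the 124 controls have 1 gene, 198 several and 13732 none. For the IGF genes and the sex-linked genes alone, names in the study's list of called probe sets were used too.

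In R 4.3.3, limma 3.58.1 (with statmod 1.5.0) fitted male minus female by lmFit and eBayes, two-sided and without covariates, once over all non-control probe sets and once after a CV filter, since the methods name a CV filter, limma, a false discovery rate and a minimum fold without the share kept. The filter used here keeps the highest CVs over both sexes, whereas the supplementary methods describe one that removes values dissimilar between replicates. A within-sex filter after that description was run as an alternative. It dropped IGFBP5, which the study's list holds, so it was not the filter that the study applied. Python 3.11.15 and matplotlib 3.10.9 drew the figures. The number of arrays limits the precision, and p-values measure the spread between pigs of one source.

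All IGF probe sets are named. In the other lists each gene is represented by its probe set with the highest mean. The called genes and the 4 with the smallest p are named of each pathway list, while cell type marker lists are given by counts, levels and called genes. The members and lists were chosen with earlier results of these data known. Alternatives were leaving out each array, a block by replicate number, an intensity trend, array weights, median centring, no minimum fold, brighter probe sets only, other CV filters and, added after seeing the data, leaving out probe sets open to cross-hybridization.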

Additional observations from a re-analysis of the deposited data

How the results depend on the processing

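The directions of IGFBP5, IGFBP2 and the 6 bright IGF2 probe sets held under every alternative run, but calls did not. Leaving out 1 array gave 13 to 285 called probe sets over all probe sets (73 with all arrays) and 56 to 391 with the CV filter (183 with all arrays), lowest without male 2 (13) and male 1 (56) and highest without male 3 in both. IGF probe sets called then numbered 0 to 1 and 0 to 2, and the difference of IGFBP5 ranged from 1.27 to 1.92 over all probe sets (limma adjusted p = 0.0869 to 0.302) and from 1.43 to 1.92 with the CV filter. That of Ssc.20525.1.S1_at (IGF2) ranged from -1.34 to -1.002, with limma adjusted p of 0.0571 to 0.210. With the replicate number as a block, 204 and 302 probe sets were called, and IGFBP5 had limma adjusted p of 0.112 and 0.0294. Deviations from the sex means correlated at -0.10, 0.01 and 0.27 for same-numbered pigs and at -0.22 to 0.21 for the other pairs. These values cannot show whether the numbers pair the pigs, since the deviations of 3 pigs from their own mean depend on each other. The block changed no call of an IGF probe set. Array weights gave 280 and 484 called probe sets and 2 IGF probe sets in each comparison. Over all probe sets these were IGFBP5 (1.49, limma adjusted p = 0.0417) and Ssc.20525.1.S1_at (-1.05, limma adjusted p = 0.0292). With the CV filter they were IGFBP5 (limma adjusted p = 0.0110) and IGFBP2 (1.38, limma adjusted p = 0.0180). Male 2 had a weight of 3.82, against 0.468 to 1.04 for the other arrays. With the CV filter, an intensity trend left 0 IGF probe sets called (IGFBP5 1.59, limma adjusted p = 0.113), keeping 5% of the probe sets left 0, keeping 20% gave 2, and the within-sex filter left 0 of 21 called. Neither the 5% nor the within-sex filter kept IGFBP5, so neither gives it a value. Keeping only means of at least the median gave 20 called probe sets over all. The cause was not tested. Leaving out probe sets open to cross-hybridization, chosen after seeing the data, still gave 73 called and 0 of IGF. Signs turned only for differences near 0. Over the runs that left out 1 array, Ssc.9365.1.S1_at (IGF2) ranged from -0.122 to 0.0814 (0.0330 without male 1, 0.0286 without female 2), Ssc.9365.6.A1_a_at from -0.0867 to 0.0865 (-0.0735 without female 3), Ssc.9365.4.S1_a_at from -0.0145 to 0.111 (-0.0127 without female 2), Ssc.9365.7.A1_x_at from -0.117 to 0.0510, IGF2R from -0.181 to 0.0190 (0.0042 without male 2) and Ssc.16058.1.S1_at (IGF1R) from -0.107 to 0.0078. With array weights Ssc.9365.1.S1_at was 0.0418 and Ssc.9365.7.A1_x_at 0.0622, and with median-centred arrays Ssc.9365.6.A1_a_at was -0.00215.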
